A study of Mus musculus with 7 samples.

Results

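Mouse brain and nerve tumours were searched for cells with the transcripts of classical monocytes, the Ly6C-high blood monocytes. A cell was counted when it held at least 1 UMI of each of Ly6c2, Ccr2 and Lyz2, at most 1 UMI in all of C1qa, C1qb and C1qc, and 0 UMIs of Cd3d, Cd3e, Cd3g, Xcr1, Clec9a, Siglech and Cd209a. A UMI is a molecular barcode that marks 1 captured RNA molecule. The rule found 186 cells among 23938 cells that passed a filter of at least 500 UMIs and 200 detected genes, with mitochondrial UMIs at 20% or below. Of these, 21 were in MYC replicate 1, 31 in MYC replicate 2, 49 in MYC replicate 4, 78 in MYC replicate 5 and 7 in SHH replicate 1. MYC replicate 3 and SHH replicate 2 held 0. The cells were chosen by their own UMIs of the 13 genes of the rule, so the levels of these genes are given as a description only. The cells are called Ly6c2/Ccr2/Lyz2 cells here, because not all of them carried the profile that the name classical monocyte implies.

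The tumours arose in Rosa26-creERT2::Smarcb1 fl/fl mice, whose mothers received 50 mg/kg tamoxifen at day 6.5 post coitum. In this strain a tamoxifen-activated Cre, driven from a locus active in most tissues, removes the chromatin remodelling subunit Smarcb1, and the tumours model atypical teratoid rhabdoid tumour (ATRT). All 7 tumours share strain and treatment, host cells can carry the deletion too, and no tissue without the Cre entered any comparison. The MYC subgroup had 5 libraries of 4 mice: basal cerebrum at 12 weeks (replicate 1), trigeminal nerve (replicate 2) and lateral cerebellum (replicate 3) at 19 weeks, trigeminal nerve at 21 weeks (replicate 4) and basal cerebrum at 27 weeks (replicate 5). MYC replicates 2 and 3 were taken as 1 mouse because their titles share a number. The SHH subgroup had 2 libraries of 2 mice, from the striatum and subventricular zone at 14 weeks (replicate 1) and 16 weeks (replicate 2). Subgroup and tumour site cannot be told apart in this design. Tumours were dissociated with Accutase, red blood cells were lysed, viable cells were sorted with the dye 7-AAD, and libraries were made with 10x 3' chemistry.

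Classical monocytes are made in the bone marrow from granulocyte-monocyte progenitors and leave it through the chemokine receptor Ccr2. In inflamed tissue and in tumours they can become macrophages or antigen-presenting cells, losing Ly6c2 and gaining MHC class II, complement C1q and other macrophage genes on the way. In the brain they differ by origin from microglia, the resident macrophages that settle before birth. Ly6c2 encodes the surface protein Ly6C, and Lyz2 the lysozyme of myeloid cells.

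The 5 libraries with such cells differed in depth. Median UMIs per Ly6c2/Ccr2/Lyz2 cell were 5002, 10699, 1747 and 5508 in MYC replicates 1, 2, 4 and 5 and 2157 in SHH replicate 1, and these cells held 116912, 349444, 88657, 505717 and 15861 UMIs in all. The deposited tables held 24433 barcodes, and the series text gives 24199 cells. Among the cells kept, 218 of 23719 distinct barcodes occurred in more than 1 library, 4 of them on Ly6c2/Ccr2/Lyz2 cells and 0 on such cells of 2 libraries. Levels are CPM, the UMIs of a gene per 1000000 UMIs after summing over the cells of a library, and intervals on them are exact Poisson intervals that cover counting error only.

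The C1q limit cut through a continuum. Among cells that met every other condition, 144 had 0 C1q UMIs and 42 had 1, just inside the limit, whereas 22 had 2, 21 had 3, 9 had 4 and 257 had 5 or more. Of the 42 cells with 1 C1q UMI, 33 were in MYC replicate 5. A single UMI carried the Ly6c2 condition in 47 of the 186 cells and the Ccr2 condition in 82. The last 300 bases of the longest coding transcripts of Ly6c2 (chr15:75108158-75111970, GRCm38, minus strand) and its neighbour Ly6c1 are 98.0% identical over aligned bases, so 3' reads of these 2 genes could be split between them.

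The genes of the rule themselves differed in level between libraries. Ly6c2 was at 2207, 2988, 1523 and 945 CPM in Ly6c2/Ccr2/Lyz2 cells of MYC replicates 1, 2, 4 and 5 and 1387 CPM in SHH replicate 1. Ccr2 (chr9:124101950-124113557), the receptor that brings monocytes out of the marrow, was at 419, 298, 1319.7 and 255 CPM in the MYC libraries and 1135 CPM in SHH replicate 1. Lyz2 (chr10:117277331-117282321) was at 9178, 7595, 25119 and 2555 CPM and 19419 CPM. Ly6c2 was thus highest in MYC replicate 2, Ccr2 and Lyz2 in MYC replicate 4, and all 3 were lowest in MYC replicate 5. The rule asked for 1 or more UMIs per cell, which sets a higher floor in CPM where cells hold fewer UMIs. Coordinates here and below are those of GENCODE vM21 on GRCm38.

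Outside the rule, Plac8 (chr5:100553725-100572245), a marker of Ly6C-high monocytes, was detected in 100, 96.8, 95.9 and 93.6% of the Ly6c2/Ccr2/Lyz2 cells of MYC replicates 1, 2, 4 and 5 and in 6 of 7 such cells of SHH replicate 1. Its level there was 6714, 3079, 6305 and 2403 CPM in the MYC libraries and 6746 CPM (95% interval 5529 to 8152) in SHH replicate 1. T cells, taken as cells with 2 or more Cd3 UMIs and 0 C1q UMIs, held Plac8 in 34.1% to 67.6% of cells in MYC replicates 1, 4 and 5 and in 16.4% in SHH replicate 1, at median depths of 4158, 1358, 4580 and 1243 UMIs. In these 4 libraries Plac8 was detected more often in Ly6c2/Ccr2/Lyz2 cells, which were deeper than the T cells, than in T cells. In MYC replicate 2, Plac8 was also detected in 274 of the 414 cells outside the rule, at 1766 CPM.

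Chil3 (chr3:106147554-106167564), which encodes the secreted chitinase-like protein Ym1 of monocytes and neutrophils, spanned a wide range. It was at 12043, 3486, 869 and 144 CPM in MYC replicates 1, 2, 4 and 5 and 441 CPM (177 to 909) in SHH replicate 1. F13a1 (chr13:36867178-37050244), the A chain of coagulation factor XIII and a gene of Ly6C-high monocytes, was at 265, 721, 462 and 59.3 CPM in the MYC libraries, with 0 UMIs in the 7 cells of SHH replicate 1, which allows up to 233 CPM. Hp, which encodes the haemoglobin-binding protein haptoglobin, was at 257, 1271, 541 and 29.7 CPM, against 3 UMIs in SHH replicate 1. Mgst1, a microsomal glutathione transferase, was at 163, 406, 699 and 61.3 CPM in the MYC libraries and 757 CPM in SHH replicate 1. For each of these 4 genes MYC replicate 5 was the lowest MYC library, and for Ms4a4c, a membrane protein of Ly6C-high monocytes, MYC replicate 2 was the lowest of them at 249 CPM, against 3225, 1263 and 1107 CPM in the others.

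The label was set against lists of marker genes for other cells the rule could admit. The 14 monocyte genes outside the rule summed to 25695, 10482, 14077 and 4445 CPM in Ly6c2/Ccr2/Lyz2 cells of MYC replicates 1, 2, 4 and 5 and 10025 CPM in SHH replicate 1. The 10 genes of non-classical (Ly6C-low) monocytes summed to only 206 to 643 CPM in the MYC libraries and 694 CPM in SHH replicate 1, with 1 to 7 of the 10 genes at 0 in a library. T cell, natural killer, B cell, mast cell, plasmacytoid dendritic cell and SHH tumour genes each stayed at or below 112 CPM in every library. Macrophage genes were present in every library, at 5893, 816, 7602 and 4633 CPM in the MYC libraries and 10781 CPM in SHH replicate 1, where they exceeded the monocyte sum, as they did in MYC replicate 5. The macrophages of these libraries held 11655, 39379, 51797 and 23319 and 92852 CPM. Programmes other than monocyte genes stood high too. In MYC replicate 2 these were neutrophil and progenitor genes, and in SHH replicate 1 MHC class II genes. In MYC replicate 5 it was 6 genes picked after seeing the values. As sums over a library, none of these programmes was at that height in MYC replicates 1 and 4. MYC replicate 1 was instead high in interferon response genes, at a median of 22683 CPM per cell, and in inflammatory genes, at 14421 CPM. In MYC replicate 4, 16 cells held 10000 CPM or more of H2-Aa, H2-Ab1, H2-Eb1 and Cd74 together, and 33 held less. Low T cell, plasmacytoid and dendritic cell levels are in part fixed by the rule, which excludes Cd3, Siglech, Xcr1, Clec9a and Cd209a. Haemoglobin genes were also detected in all 31 cells of MYC replicate 2, at 970.1 CPM, while Alas2, the heme synthesis gene listed with them, was at 0 CPM. The same list was at 1229 CPM in its T cell gate, which was rich in neutrophil RNA.

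**Figure D1:**
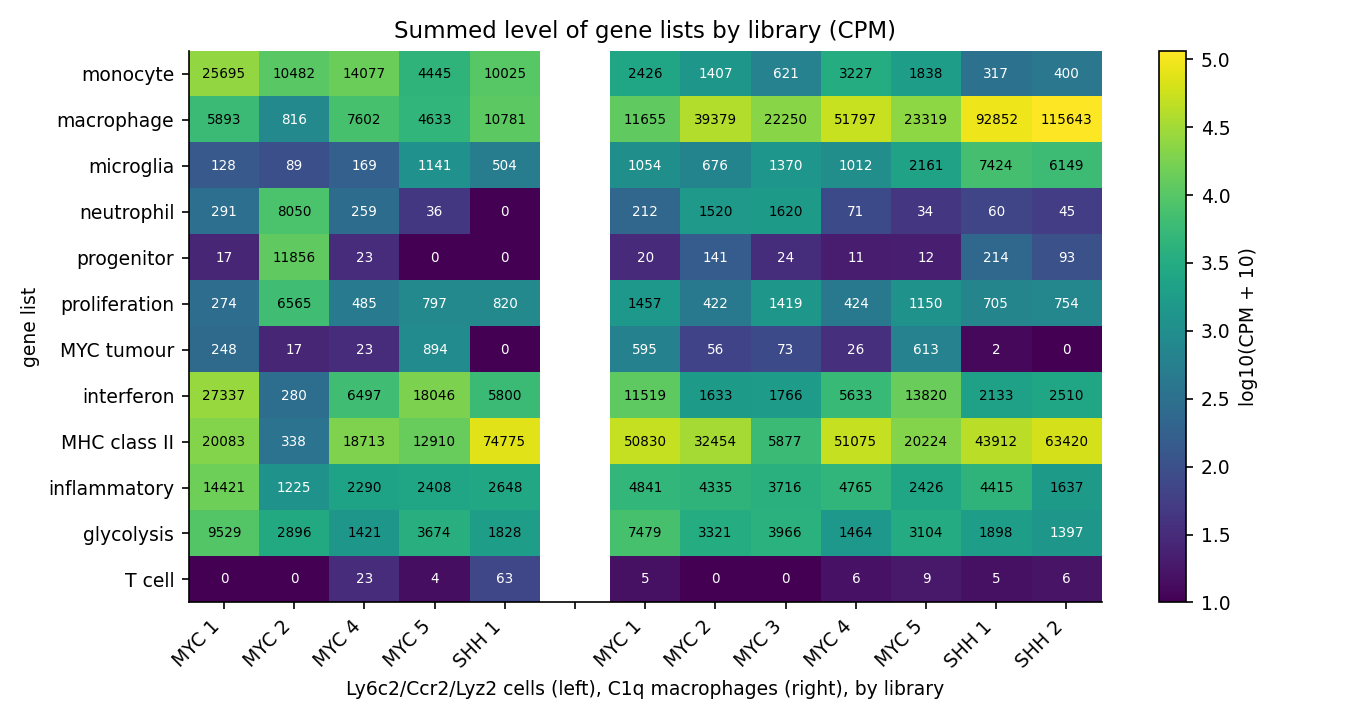
Summed CPM of 12 gene lists in Ly6c2/Ccr2/Lyz2 cells of 5 libraries (left block) and in C1q macrophages of 7 libraries (right block); numbers are CPM and colour is log10(CPM + 10). The progenitor row reaches 11856 CPM in MYC replicate 2 and at most 22.6 CPM in the other Ly6c2/Ccr2/Lyz2 cells.

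Ly6c2/Ccr2/Lyz2 cells took a larger share of each MYC mouse than of either SHH mouse, but the number of mice was too small for a call. They made up 6.07% of cells in MYC replicate 1 (Wilson 95% interval 4.00 to 9.10%), 4.94% in MYC replicates 2 and 3 together, 2.16% in MYC replicate 4 (1.64 to 2.84%) and 0.511% in MYC replicate 5 (0.410 to 0.638%). In SHH replicate 1 they were 0.188% of cells (0.0909 to 0.387%), and in SHH replicate 2 they were 0 of 1708 (0 to 0.224%). The shares averaged 3.42% ± 2.54 in MYC mice (SD, n = 4) and 0.0938% ± 0.133 in SHH mice (SD, n = 2). The exact two-sided permutation test over the 6 mice gave p = 0.133, and the smallest p it can give is 0.0667. In the mouse of MYC replicates 2 and 3, all 31 cells were in the trigeminal nerve library and 0 of 183 in the cerebellar one (Wilson 95% interval 0 to 2.06%).

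Set against macrophages rather than all cells, each MYC mouse again lay above both SHH mice, with MYC replicates 2 and 3 now the highest. C1q macrophages were cells with 1 or more Csf1r UMIs and 3 or more C1q UMIs under the same exclusions, 3442 cells in all. Of Ly6c2/Ccr2/Lyz2 cells plus C1q macrophages, the Ly6c2/Ccr2/Lyz2 cells made up 44.7% in MYC replicate 1, 60.8% in MYC replicates 2 and 3, 25.8% in MYC replicate 4 and 3.15% in MYC replicate 5, against 1.08% in SHH replicate 1 and 0% in SHH replicate 2. The means were 33.6% ± 24.8 in MYC mice and 0.540% ± 0.764 in SHH mice (exact two-sided permutation p = 0.133, also after Benjamini-Hochberg adjustment over both shares). The number of cells that such a rule finds depends on depth. Its need for UMIs of 3 genes is met more often in deeper cells, and its upper limits are exceeded more often. Cells with 1500 or more UMIs were therefore thinned to 1500 UMIs before the rule, and cells with fewer were left out. This left out 941 of 2270 cells of MYC replicate 4, 1132 of 3733 of SHH replicate 1, 294 of 1708 of SHH replicate 2 and 0 of the other libraries. Shares of the cells that remained were 2.89%, 1.27%, 2.03% and 0.177% in the MYC mice and 0.231% and 0% in the SHH mice. MYC replicate 5 then no longer lay above SHH replicate 1, over unlike sets of cells (p = 0.200, exact permutation test).

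**Figure D2:**
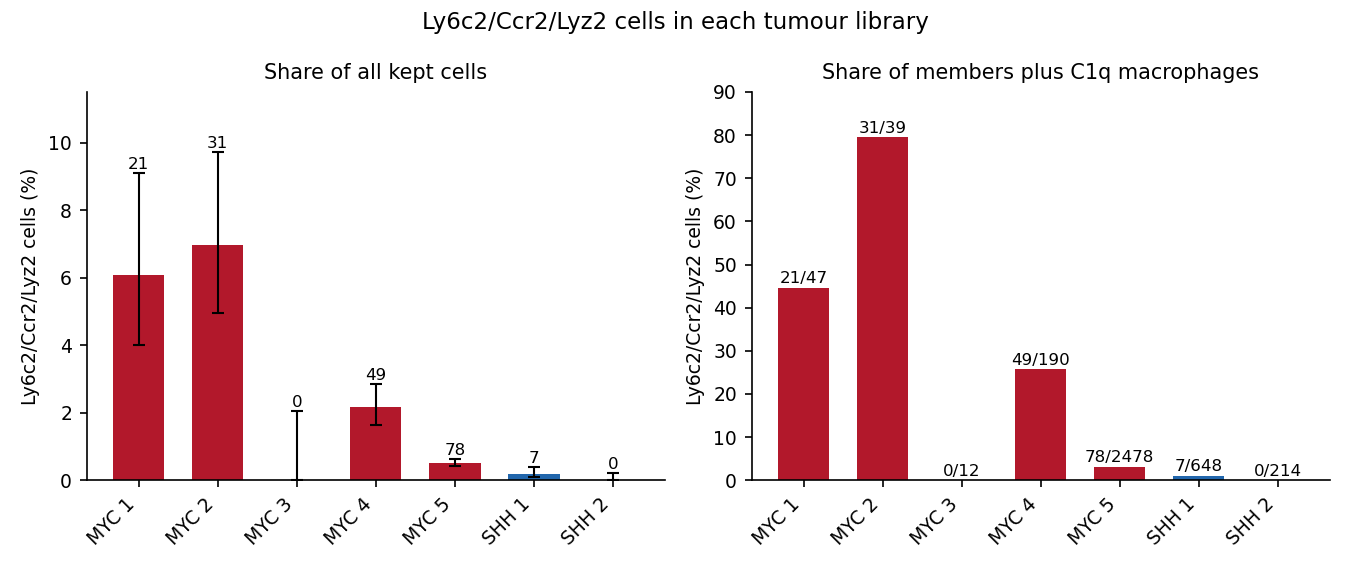
Ly6c2/Ccr2/Lyz2 cells in each library as a percentage of all kept cells (left; bars are 95% Wilson intervals, numbers are cells) and of Ly6c2/Ccr2/Lyz2 cells plus C1q macrophages (right; numbers are cells over the total). MYC libraries are red and SHH libraries blue; MYC replicate 2 is highest in both panels, and MYC replicate 3 and SHH replicate 2 are at 0.

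Within the 4 MYC mice, Ly6c2/Ccr2/Lyz2 cells were compared with C1q macrophages of the same mouse, to show what sets them apart beyond the genes of the rule. UMIs were summed per mouse and class (179 and 2587 cells) and tested with edgeR's quasi-likelihood test with mouse as a block, Benjamini-Hochberg adjusted, leaving out every gene of either rule. Of 3263 genes tested, 23 passed at an adjusted p of 0.05 (0.705%), 11 higher (0.337%) and 12 lower (0.368%) in Ly6c2/Ccr2/Lyz2 cells. Genes that travel with Ly6c2 or with C1q were partly fixed by the choice of cells, so these calls describe the 2 classes and are no independent evidence for the name.

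Of the 11 genes that rose, 5 were on the list of monocyte genes outside the rule. Chil3 averaged 4830.4 ± 6506 TMM-normalised CPM in Ly6c2/Ccr2/Lyz2 cells and 138 ± 158 in C1q macrophages (SD, n = 4 mice), a log2 fold change of 4.47 ± 0.47 SE, adjusted p = 0.00575. Per mouse it was 14295, 3866, 994 and 166 CPM in Ly6c2/Ccr2/Lyz2 cells of MYC replicates 1, 2 and 3, 4 and 5, against 368, 66.8, 106 and 12.9 CPM in their macrophages, higher in each mouse, although the Ly6c2/Ccr2/Lyz2 cells of replicate 5 lay below the macrophages of replicate 1. F13a1 was 315, 799.9, 529 and 68.1 CPM in Ly6c2/Ccr2/Lyz2 cells of the same mice, against 11.2, 114, 40.0 and 9.79 CPM in macrophages (log2 fold change of 3.30 ± 0.36 SE, adjusted p = 0.00575). Hp was 305, 1409, 619.9 and 34.0 CPM, against 0, 26.7, 98.2 and 3.54 CPM in macrophages, and both genes overlapped between the classes across mice (log2 fold change of 3.98 ± 0.60 SE, adjusted p = 0.0266). Ifitm6, an interferon-induced transmembrane family gene of monocytes, had a log2 fold change of 3.37 ± 0.51 SE, adjusted p = 0.0266, and Mgst1 a log2 fold change of 2.74 ± 0.31 SE, adjusted p = 0.00676. All 5 of these genes are among the 12 tested members of the monocyte list, whose median log2 fold change was 2.14, beside 0.02 over all genes tested. The other 7 did not pass, among them Plac8 (log2 fold change of 3.50 ± 0.81 SE, adjusted p = 0.122, higher in 4 of 4 mice) and Ms4a4c (log2 fold change of 1.54 ± 0.36 SE, adjusted p = 0.122, higher in 4 of 4).

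The other 5 named genes rose. Slpi (chr2:164354070-164389095), a secreted inhibitor of neutrophil serine proteases, was 711, 448, 207 and 908 CPM in Ly6c2/Ccr2/Lyz2 cells of MYC replicates 1, 2 and 3, 4 and 5, against 50.2, 0, 3.64 and 16.6 CPM in macrophages (log2 fold change of 5.34 ± 0.52 SE, adjusted p = 0.00555). The groups did not overlap, and 1 cell held 42.9% of the Slpi UMIs in MYC replicate 1 and 1 cell 33% in MYC replicate 5. Gpr141, an orphan G protein-coupled receptor, was 152, 54.0, 194 and 81.7 CPM, against 27.9, 0, 21.8 and 17.0 CPM, with no overlap (log2 fold change of 2.66 ± 0.40 SE, adjusted p = 0.0266). S100a11, a calcium-binding protein, was the most abundant of them at 3665, 1098, 1433 and 2301 CPM, against 714, 427, 429 and 1002 CPM, with no overlap (log2 fold change of 1.66 ± 0.25 SE, adjusted p = 0.0266), and it was the only one of 12 tested S100 and annexin genes to pass. The acid sphingomyelinase-like enzyme Smpdl3a (log2 fold change of 1.90 ± 0.30 SE, adjusted p = 0.0292) and the peroxide-reducing enzyme Prdx6 (log2 fold change of 1.44 ± 0.23 SE, adjusted p = 0.0319) rose by less.

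Genes of settled macrophages and microglia were lower. Pf4 (chr5:90772435-90773383), a chemokine of platelets and of some tissue macrophages, was 10.2, 3.17, 0 and 4.54 CPM in Ly6c2/Ccr2/Lyz2 cells of MYC replicates 1, 2 and 3, 4 and 5, against 1105, 361, 320.2 and 141 CPM in macrophages, with no overlap (log2 fold change of -6.23 ± 0.46 SE, adjusted p = 0.00178). Trem2, a lipid-sensing receptor of macrophages and microglia, was 50.8, 88.9, 116 and 40.9 CPM, against 89.3, 521, 800.5 and 223 CPM, which overlapped in part (log2 fold change of -2.32 ± 0.35 SE, adjusted p = 0.0266). Tmem119, a microglial membrane protein, was 30.5, 0, 12.9 and 27.2 CPM, against 335, 114, 138 and 493 CPM (log2 fold change of -4.21 ± 0.49 SE, adjusted p = 0.00763).

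Of 10 tested macrophage genes 2 fell (Pf4 and Trem2) and 0 rose, with a median log2 fold change of -2.62. The other 8 macrophage genes did not pass, including Apoe, the main lipid carrier of macrophages, at log2 fold change of -2.93 ± 0.63 SE, adjusted p = 0.104, although it was lower in 4 of 4 mice. Hpgds, the haematopoietic prostaglandin D synthase, fell (log2 fold change of -3.62 ± 0.59 SE, adjusted p = 0.0319), as did the calcium/calmodulin kinase Camk1 (log2 fold change of -2.79 ± 0.36 SE, adjusted p = 0.0148) and the Rab3 exchange factor-like gene Rab3il1 (log2 fold change of -3.01 ± 0.45 SE, adjusted p = 0.0266). Zmynd15 (log2 fold change of -4.01 ± 0.63 SE, adjusted p = 0.0292), the nucleoside triphosphatase Ntpcr (log2 fold change of -2.16 ± 0.35 SE, adjusted p = 0.0319) and the ion channel-like Tmem176b (log2 fold change of -2.08 ± 0.25 SE, adjusted p = 0.00943) fell as well. The genes named here as fallen were lower, and those named as risen higher, in 4 of 4 mice, as were 316 (9.68%) and 320 (9.81%) of the 3263 genes.

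Among the functional lists, S100a11 of the S100 and annexin list was the only call. MHC class II genes had a median log2 fold change of -2.08 with all 6 tested genes lower in 4 of 4 mice, but 0 passed; Cd74, the invariant chain, had a log2 fold change of -2.09 ± 1.02 SE, adjusted p = 0.603. Of 20 tested interferon response genes 0 passed (median 0.43), as did 0 of 9 inflammatory, 10 glycolysis, 11 transcription factor, 10 MHC class I, 12 lysosome or 8 pattern recognition and Fc receptor genes. Across all genes 313 had an unadjusted p under 0.05. The calls rest on few mice: the test without MYC replicate 4 called 3 genes, and that without MYC replicate 5 called 5. Without the mouse block 2 genes passed, and 32 did without MYC replicates 2 and 3. Leaving out cells with progenitor genes in both classes also dropped that mouse and gave 71. Leaving out cells with MYC tumour genes dropped MYC replicate 1 and gave 19, with 3 higher and 16 lower, of which 11 were among the 23. In the mouse of MYC replicates 2 and 3, all Ly6c2/Ccr2/Lyz2 cells came from MYC replicate 2, whereas 8 macrophages came from MYC replicate 2 and 12 from MYC replicate 3.

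**Figure D3:**
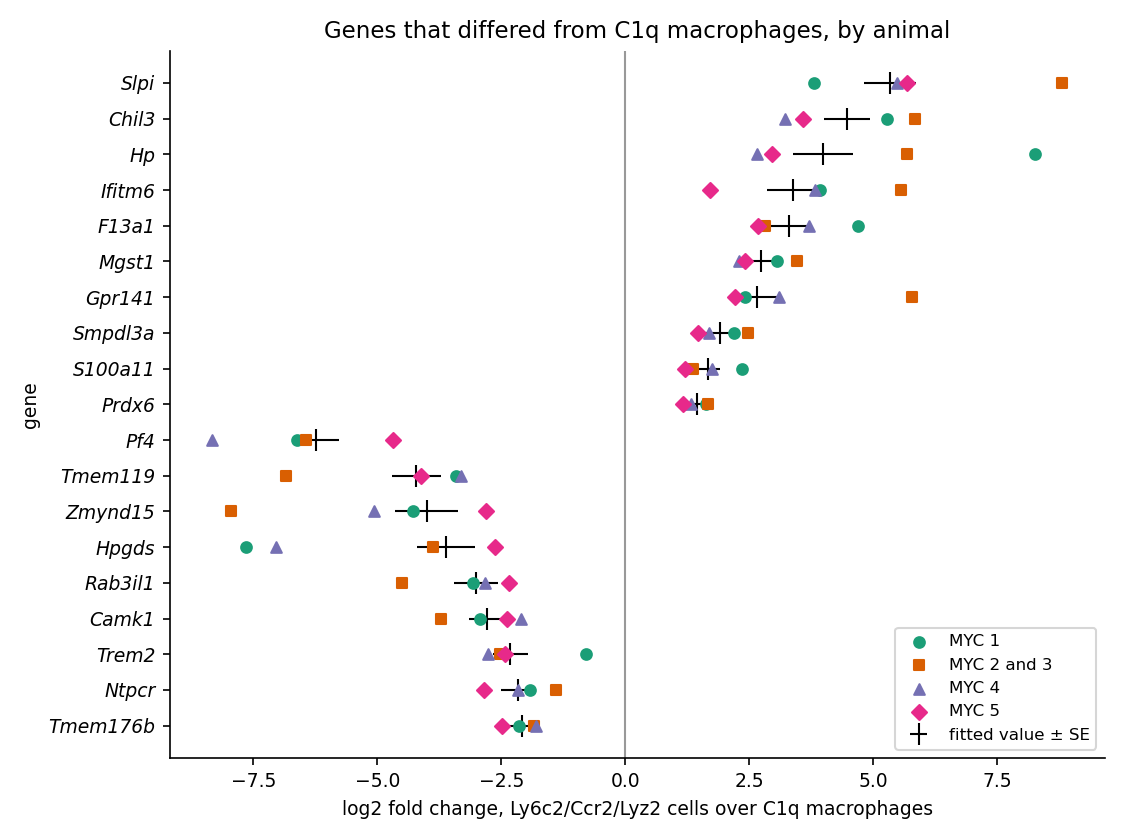
Log2 fold change of named genes that passed, Ly6c2/Ccr2/Lyz2 cells over C1q macrophages, in each of 4 MYC mice (coloured points, from TMM-normalised CPM plus 1) and from the edgeR fit (black, ± SE). The genes from Slpi to Prdx6 lie right of 0 and those from Pf4 to Tmem176b left of 0 in every mouse; points farthest from 0 for Slpi, Hp, Pf4, Hpgds and Zmynd15 rest on a class at or near 0 UMIs.

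Tmem176a and Rgs10 also passed, both lower, as did the predicted gene Gm9733, which was higher. Among lists without a call, the 12 lysosome and antimicrobial genes had a median log2 fold change of -1.13, with 5 lower and 0 higher in 4 of 4 mice. Ctsd, the aspartic protease cathepsin D, was at 265, 166, 147 and 218 CPM in Ly6c2/Ccr2/Lyz2 cells of MYC replicates 1, 2, 4 and 5, against 807, 619, 1487 and 513 CPM in macrophages (log2 fold change of -2.07 ± 0.38 SE, adjusted p = 0.0609). In SHH replicate 1 it was at 252 CPM in Ly6c2/Ccr2/Lyz2 cells, against 7035 CPM in macrophages. Cd63, a tetraspanin of lysosomes, was at 77.0, 31.5, 33.8 and 1121 CPM in the MYC libraries, against 968, 1689, 1268 and 1470.5 CPM in macrophages, and only MYC replicate 5 approached its macrophages (log2 fold change of -3.57 ± 0.88 SE, adjusted p = 0.157). The calcium-binding S100a6 was higher in 3 of these 4 libraries, at 4139.9, 1462, 3824 and 5313 CPM, against 1029, 1548, 802 and 2813 CPM in macrophages (log2 fold change of 1.36 ± 0.34 SE, adjusted p = 0.158). Spp1, the secreted matrix protein osteopontin, was at 445, 57.2, 0 and 781 CPM in Ly6c2/Ccr2/Lyz2 cells, against 575, 1295, 2121 and 3001 CPM in macrophages (log2 fold change of -3.16 ± 1.03 SE, adjusted p = 0.321), with 0 UMIs in SHH replicate 1, against 2096 CPM in its macrophages. Among MHC class I genes, B2m, the light chain shared by all of them, was at 9443, 2292, 6869 and 6383 CPM and 8889.7 CPM in Ly6c2/Ccr2/Lyz2 cells of the MYC libraries and SHH replicate 1, lowest in MYC replicate 2.

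The Ly6c2/Ccr2/Lyz2 cells of different libraries lay far apart in interferon response genes, the antiviral programme that type I and type II interferons switch on. The 22 genes summed to 27337, 280.4, 6497 and 18046 CPM in MYC replicates 1, 2, 4 and 5 and 5800.4 CPM in SHH replicate 1. MYC replicates 1 and 5 were high, MYC replicate 4 and SHH replicate 1 intermediate, and MYC replicate 2 close to 0. Isg15, a ubiquitin-like protein that is conjugated to other proteins after interferon exposure, was at 4371, 14.3, 981 and 2527 CPM in the MYC libraries and 819.6 CPM in SHH replicate 1. Rsad2, the antiviral enzyme viperin, was at 2198, 0, 305 and 520.1 CPM in the MYC libraries and 0 in SHH replicate 1. Cxcl10, a chemokine that attracts activated T cells, was at 4294, 17.2, 203 and 595 CPM and 0 in SHH replicate 1. Irf7, the transcription factor that amplifies the response, was at 2335, 5.72, 192 and 829 CPM and 189 CPM. Ifi27l2a instead was highest in MYC replicate 5, at 8432 CPM, against 2746, 63.0 and 2357 CPM in MYC replicates 1, 2 and 4.

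Among macrophages of these 5 tumours MYC replicate 2, with 8 cells, was the lowest and MYC replicate 5 the highest. The interferon list summed to 11519, 1633, 5633 and 13819.7 CPM in C1q macrophages of MYC replicates 1, 2, 4 and 5 and 2133 CPM in those of SHH replicate 1. In T cells it summed to 6949.9, 5092 and 13777 CPM in MYC replicates 1, 4 and 5 and 2955 CPM in SHH replicate 1. Within MYC replicate 1 single Ly6c2/Ccr2/Lyz2 cells ranged over 1410.0 to 72571 CPM, with a median of 22683, and 1 of its 21 cells held 37.4% of the Rsad2 UMIs. The part of free RNA in these levels was not tested.

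Promoters of 3 of these genes are shown because the genes moved together across libraries. Each runs from 250 bases before to 50 after the start of the gene, 5′ to 3′ on the gene's strand, from RefSeq on GRCm38.p6. Capitals mark matches to GAAANNGAAA or its reverse complement, letters of the type bound by interferon-activated factors; overlapping matches run together.
Isg15 (chr4:156200769-156201068, minus strand): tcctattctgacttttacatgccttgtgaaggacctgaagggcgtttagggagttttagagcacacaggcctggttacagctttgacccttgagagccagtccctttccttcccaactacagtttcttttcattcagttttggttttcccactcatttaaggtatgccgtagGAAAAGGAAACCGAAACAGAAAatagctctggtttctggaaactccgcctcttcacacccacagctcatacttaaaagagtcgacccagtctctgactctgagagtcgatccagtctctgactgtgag
Ifit1 (chr19:34640639-34640938, plus strand): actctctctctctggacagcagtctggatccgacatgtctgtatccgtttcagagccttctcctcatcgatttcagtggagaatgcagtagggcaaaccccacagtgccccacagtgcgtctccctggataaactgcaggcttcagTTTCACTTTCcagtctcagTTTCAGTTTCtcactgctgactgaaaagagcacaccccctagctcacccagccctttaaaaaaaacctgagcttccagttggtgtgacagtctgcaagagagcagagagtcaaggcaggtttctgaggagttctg
Rsad2 (chr12:26456403-26456702, minus strand): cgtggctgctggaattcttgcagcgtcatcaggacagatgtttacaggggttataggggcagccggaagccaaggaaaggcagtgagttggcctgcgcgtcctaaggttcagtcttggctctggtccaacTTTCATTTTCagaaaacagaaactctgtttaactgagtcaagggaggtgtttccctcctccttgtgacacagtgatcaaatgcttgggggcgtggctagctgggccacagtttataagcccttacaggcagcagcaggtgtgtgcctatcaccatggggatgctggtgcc
Of 15 interferon list genes in the RefSeq promoter table, 9 had such a match in a window of this length (60%), as did 1079 of 27025 genes overall (3.99%) and 0 of 4 MHC class II genes. A match describes letters and not binding. Irf7 held 0 matches in its window, which says nothing of the factor.

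MHC class II genes, which present antigen to helper T cells, split the cells within a library. The list summed to 20083, 338, 18713 and 12910.4 CPM in Ly6c2/Ccr2/Lyz2 cells of MYC replicates 1, 2, 4 and 5 and 74775 CPM in SHH replicate 1, and to 50829.8, 32454, 51075 and 20224 CPM in C1q macrophages of these MYC libraries and 43912 CPM in those of SHH replicate 1. The Ly6c2/Ccr2/Lyz2 cells were lower than the macrophages in all 4 MYC libraries and higher in SHH replicate 1. In MYC replicate 1 a single cell held 88.5% of the H2-Eb1 UMIs and 52.1% of those of Cd74.

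MYC replicate 4 showed the split best. Of its 49 cells, 17 held 0 UMIs of H2-Aa, H2-Ab1, H2-Eb1 and Cd74, the upper quartile was 23723 CPM and the highest cell 93208 CPM. With a limit of 10000 CPM, set after seeing the values, 16 cells were above and 33 below, and 6 lay within 2-fold of it. F13a1 was detected in 0 of the 16 cells above, at a median of 1991 UMIs per cell, and in 24 of the 33 below, at 1660 UMIs. Lyz2 was at 9799 CPM above the limit and 33964 CPM below it, and Mgst1 at 277 and 943 CPM. Ccl24, an eosinophil-attracting chemokine of alternatively activated macrophages, went the other way, in 8 of 16 cells above and 1 of 33 below. Isg15 was at 2065 CPM above and 356 CPM below. Ly6c2, at 1263 and 1672 CPM, and Plac8, at 6225 and 6352 CPM, differed less between the 2 sets of cells. These are cells of 1 tumour, and no test was made between them.

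Elsewhere the split was similar in part. In MYC replicate 1, F13a1 was detected in 1 of 5 cells above the limit and 12 of 16 below, and Lyz2 was at 4404 and 11291 CPM. In MYC replicate 5, Lyz2 was at 2880.3 CPM in 35 cells above and 2403 CPM in 43 below, and F13a1 in 5 and 10 cells, with median depths of 3980 and 7625 UMIs. Within 2-fold of the limit lay 3 cells of MYC replicate 1 and 15 of MYC replicate 5. Across the 49 cells of MYC replicate 4, MHC class II CPM and F13a1 CPM had a Spearman rho of -0.67. Across the 21 cells of MYC replicate 1 it was -0.23, and across the 78 cells of MYC replicate 5 -0.15. With Lyz2 CPM the rho was -0.62 in MYC replicate 4, but -0.07 in MYC replicate 1 and 0.08 in MYC replicate 5. The cells of a library share 1 mouse and 1 preparation.

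**Figure D4:**
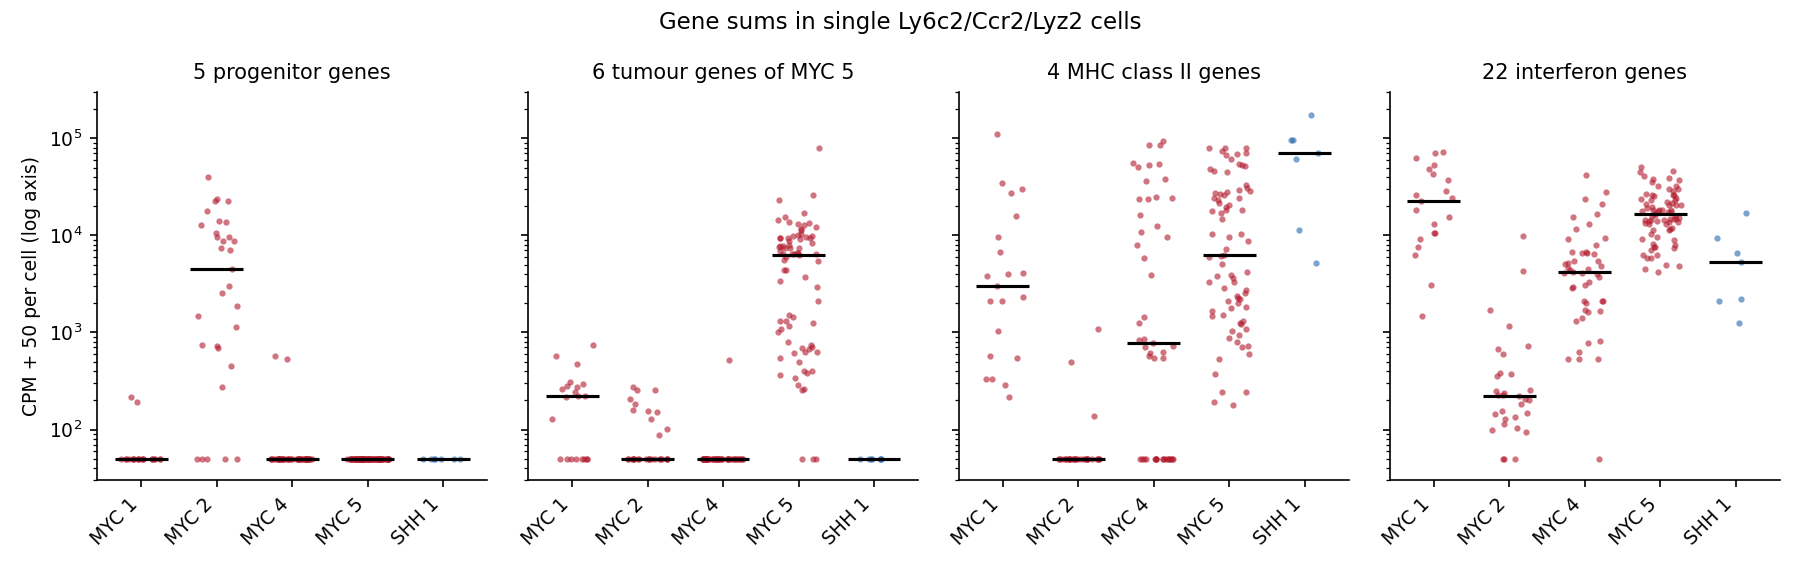
Summed CPM plus 50 (log axis) of 4 sets of genes in each Ly6c2/Ccr2/Lyz2 cell, by library. The sets are 5 progenitor genes, 6 genes picked in MYC replicate 5 (headed tumour genes), 4 MHC class II genes and 22 interferon response genes. A point is a cell and a line the median. MYC replicate 2 stands apart in progenitor genes, with a median of 4486 CPM, and MYC replicate 5 in the 6 genes picked there, with a median of 6303 CPM.

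Inflammatory and glycolysis genes were highest in MYC replicate 1, a basal cerebral tumour. The 13 inflammatory genes summed to 14421, 1225, 2289.7 and 2408 CPM in Ly6c2/Ccr2/Lyz2 cells of MYC replicates 1, 2, 4 and 5 and 2648 CPM in SHH replicate 1. Ccl2, the main ligand of Ccr2, was at 5098, 71.5, 282 and 239 CPM in the MYC libraries and 0 in SHH replicate 1. Ccl4, a chemokine of activated myeloid cells, was at 3285, 229, 248 and 204 CPM and 189 CPM, and Il1b, the cytokine interleukin 1 beta, at 2069.9, 106, 643 and 310.5 CPM and 1324 CPM. Cxcl2, a neutrophil attractant, and Il1rn, the interleukin 1 receptor antagonist, were also highest in MYC replicate 1, at 984 and 709.9 CPM, against at most 164 and 103 CPM in the other libraries. Arg1, the arginase of suppressive myeloid cells, was at 1369, 0, 316 and 121 CPM and 0 in SHH replicate 1. Genes that dissociation is known to induce were also highest in MYC replicate 1, at 10666 CPM, against 4542 to 5800.4 CPM in the other 4 libraries, and their part in these levels was not tested.

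The 14 hypoxia and glycolysis genes summed to 9529, 2896, 1421 and 3674 CPM in the MYC libraries and 1828 CPM in SHH replicate 1. Hilpda, a hypoxia-induced lipid droplet protein, was at 522, 17.2, 11.3 and 79.1 CPM and 0 in SHH replicate 1, and Eno1, a glycolytic enolase, at 1582, 263, 395 and 196 CPM and 378 CPM. The C1q macrophages of MYC replicate 1 had 7479 CPM of this list, the highest of the 7 libraries, and its T cells had 4692 CPM.

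The receptors Cd14, Fcgr1 and Ccr1 were highest in MYC replicate 1 as well. Cd14, the co-receptor for lipopolysaccharide, was at 1771, 137, 699 and 257 CPM in MYC replicates 1, 2, 4 and 5 and at 1 UMI in SHH replicate 1. Fcgr1, the high-affinity IgG receptor CD64, was at 1249, 37.2, 316 and 409 CPM in the MYC libraries and 315 CPM in SHH replicate 1, and Ccr1, a chemokine receptor, at 522, 45.8, 124 and 75.1 CPM and 189 CPM. Cx3cr1, the fractalkine receptor of non-classical monocytes and microglia, was low, at 25.7, 8.59, 248 and 53.4 CPM and 315 CPM, below the macrophages of each library (212, 169, 358 and 429 and 857 CPM). Of the transcription factors, Spi1, the myeloid master regulator PU.1, was at 676, 355, 293 and 162 CPM and 630.5 CPM, while Irf8, which directs progenitors towards monocytes, was highest in MYC replicate 2, at 179.6, 424, 180.5 and 127 CPM and 252 CPM. MYC replicates 1 and 4 also held the highest Zeb2, a repressor expressed in maturing myeloid cells, among the MYC libraries, at 453, 112, 361 and 103 CPM, and SHH replicate 1 was at 504 CPM.

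Most of the 31 cells of MYC replicate 2 carried genes of bone marrow progenitors, and 5 of them held 0 UMIs of the 5 genes named next. Elane, Prtn3, Mpo and Ctsg, which encode the proteases and peroxidase of primary granules, were at 3345, 3474, 2241 and 2015 CPM, and Ms4a3, a marker of granulocyte-monocyte progenitors, at 767 CPM. The other 414 cells of this library held these 5 genes at 6321, 3094, 2571, 2459 and 1153 CPM, higher than the 31 cells for all but Prtn3. The part of free RNA and of doublets in these levels was not tested. In Ly6c2/Ccr2/Lyz2 cells of the other 4 libraries the 6 genes of this list summed to 17.1, 22.6, 0 and 0 CPM. Proliferation genes summed to 6565 CPM in the 31 cells, against 274, 485, 797 and 819.6 CPM in MYC replicates 1, 4 and 5 and SHH replicate 1. The same cells had 338 CPM of MHC class II and 280.4 CPM of interferon genes, the lowest of the 5 libraries in both lists.

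Neutrophil genes were high in that library as a whole. Neutrophil genes summed to 8049.9 CPM in its Ly6c2/Ccr2/Lyz2 cells and to 1520.0 CPM in its 8 macrophages. S100a8, an alarmin of neutrophils and monocytes, was at 6078 CPM in the 31 cells, against 71191 CPM in the other 414 cells, and the granule genes Camp and Ngp at 100.2 and 134 CPM, against 22219 and 23176 CPM. Its T cell gate held 154989 CPM of neutrophil genes over 33 cells, so its other values, too, were read from cells rich in neutrophil RNA.

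Progenitor genes and monocyte genes stood in the same cells. Of the 31 cells, 22 had 5 or more UMIs of Elane, Prtn3, Mpo, Ctsg and Ms4a3, and all 22 had F13a1, as did the other 9. By contrast, 0 such cells were found among the Ly6c2/Ccr2/Lyz2 cells of other libraries. Another 116 cells of MYC replicate 2 passed the same limit without meeting the rule, at a median of 13124 UMIs, against 12425 in the 22. F13a1 was detected in 21 of these 116. Irf8 was detected in 20 of the 22 cells and 7 of the 116, Ly86, a partner of a Toll-like receptor homologue, in 17 and 5, and Klf4, a factor of monocyte differentiation, in 15 and 7. The granulocyte factor Cebpe ran the other way, in 3 of the 22 and 97 of the 116, and Gfi1, a repressor that favours granulocytes, in 0 and 20. Plac8 did not tell them apart, in all 22 cells at 3275 CPM and in 114 of the 116 at 3200 CPM. Genes that go with Ly6c2, Ccr2 and Lyz2 were favoured in the 22 by the rule itself. No test between these cells of 1 library was made.

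**Figure D5:**
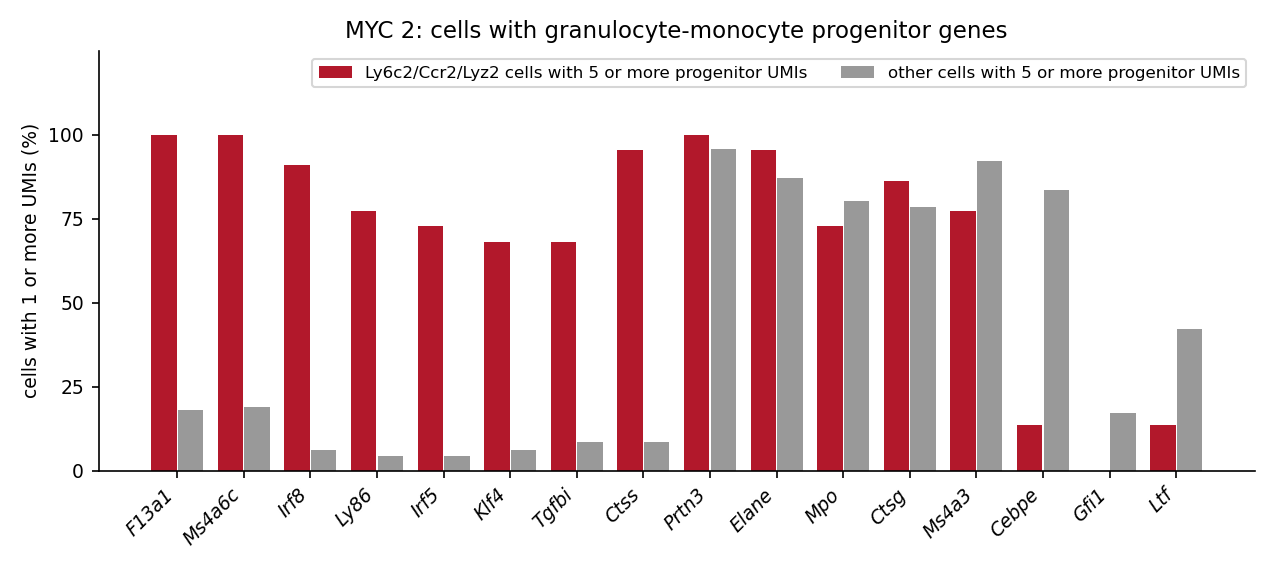
Percentage of cells of MYC replicate 2 with 1 or more UMIs of 16 genes, among 22 Ly6c2/Ccr2/Lyz2 cells (red) and 116 other cells (grey) that each hold 5 or more UMIs of 5 progenitor genes. The monocyte genes at the left are mostly found in the red bars, the progenitor genes in the middle in both, and Cebpe, Gfi1 and Ltf at the right mostly in the grey bars.

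RNA of MYC tumour genes was detected in part of the 78 cells of MYC replicate 5. The list of 8 MYC tumour genes summed to 894 CPM in them and was detected in 56.4% of them. It was at 613 CPM and in 38.2% of cells in C1q macrophages, and at 645 CPM and in 44.7% of cells in T cells. The 6 genes that stood high there after the values were seen (Meg3, Cryab, Sparc, Col1a2, Id3 and Ogn, of which Sparc is also a microglia gene) had a median sum of 6303 CPM per cell, against 571 CPM in C1q macrophages and 1255 CPM in T cells of the same library, an excess that the choice of these genes fixed. In the Ly6c2/Ccr2/Lyz2 cells of MYC replicates 2 and 4 and of SHH replicate 1 that median was 0, and in MYC replicate 1 it was 169 CPM. In C1q macrophages of SHH replicate 1 it was 1305 CPM, so the sum was not confined to MYC libraries. The level of these genes in tumour cells is not given here. Of the 78 cells, 56 had 1000 CPM or more of these genes, at a median of 6804 UMIs, and 22 had less, at 3464 UMIs. Scrublet scores marked 18 of the 78 as doublets and 0 of the Ly6c2/Ccr2/Lyz2 cells of other libraries. The share of cells to be marked was fixed beforehand and grew with the number of cells in a library. MYC replicate 5 had 15253 kept cells, and the other libraries with Ly6c2/Ccr2/Lyz2 cells had 346 to 3733. These counts of marked cells therefore cannot be compared between libraries, and the share marked among all cells is not given here.

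Several abundant myeloid genes were lower in the 56 cells than in the 22, while some scarcer monocyte genes were not. Lyz2 was at 1888 CPM in the 56, 6028 CPM in the 22 and 4426 CPM in macrophages. Tyrobp, the signalling adaptor of myeloid receptors, was at 702 CPM in the 56, 3167 CPM in the 22 and 2195 CPM in macrophages, and Fcer1g, the shared Fc receptor gamma chain, at 1518, 5856 and 4136 CPM. Ms4a4c was at 879 CPM in the 56 and 2296 CPM in the 22, and Cd74 at 4153 and 18095 CPM. F13a1 was at 61.3 and 49.1 CPM and Hp at 30.6 and 24.6 CPM in the 56 and the 22. Chil3 was at 96.6 and 393 CPM but was detected in 18 of the 56 and 3 of the 22. Plac8 differed little, at 2350.0 and 2676 CPM, and stood at 945 CPM in T cells. Smarcb1, the gene deleted in the tumours, was detected in 5 of the 56 cells, 6 of the 22, 20.3% of macrophages and 12.8% of T cells; 3' reads need not lie in the deleted exons. The part of doublets and of free RNA in the 56 cells was not tested. With cells of both classes at 1000 CPM or more of the 6 genes left out, the comparison with macrophages gave 28 calls, 17 of them among the 23.

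The 7 cells of SHH replicate 1 stood out for MHC class II. Cd74 was at 36315 CPM (33409.9 to 39406), against 11102, 14.3, 9757 and 6399 CPM in MYC replicates 1, 2, 4 and 5, and H2-Ab1 at 18095 CPM (16062 to 20314), against 3259, 2.86, 3609 and 2932 CPM. All 7 cells had MHC class II UMIs, over 5147 to 175707 CPM. Ccl17, a chemokine of dendritic cells, reached 5737 CPM and Ccl24 1387 CPM, but each came from 1 of the 7 cells. Apoe was at 9709 CPM, against 87064 CPM in the macrophages of that library, and Tmem119, Pf4 and Hpgds had 0 UMIs. The list of dendritic cell genes summed to 189 CPM, with 8 of 10 genes at 0.

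No test of MYC against SHH was made within these cells, since 1 SHH mouse held 7 of them and the other 0, and fewer than 2 SHH mice had the 10 cells set as the minimum. The differences between MYC replicates 1, 2, 4 and 5 and SHH replicate 1 above have no replicate check on the SHH side. A comparison with Cd209a-positive dendritic cells, which also use Ccr2, was not possible either, since with 2 or more Cd209a UMIs only MYC replicate 4 (6 cells) and SHH replicate 1 (4 cells) held any, and with 1 or more and no Ly6c2 there were 13 and 5, and 2 in MYC replicates 2 and 3.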

How the data were processed

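Single-cell RNA-seq libraries of 7 tumours from 6 mice were read as 7 tables of raw UMI counts per gene and cell, which the authors deposited; per the submitters' processing notes Cell Ranger 2.0.2 and mm10 were used. How the authors chose barcodes is not given in the sources used here. The tables held 143274671 UMIs, and kept cells had median UMIs of 1728 to 9346 per library. Genes not listed in a table were counted as 0. The cells, marker lists, limits and tests were chosen with earlier results of these data known.

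Counts were summed per mouse and class and tested with edgeR 4.0.16 (limma 3.58.1, R 4.3.3): TMM, filterByExpr, quasi-likelihood test, mouse as a block, because Ly6c2/Ccr2/Lyz2 cells and macrophages of a mouse share 1 tumour. A class needed 10 or more cells in a mouse. Genes of the rules were left out, and Csf1r with them. Shares were tested by exact permutation over mice. Python 3.11.15, scanpy 1.11.5, scipy 1.17.1, numpy 2.4.6 and pandas 2.3.3 did the rest. Named genes were the 10 with the largest and the 10 with the smallest fold changes among those that passed, had an average log2 CPM of at least 5 and moved the same way in every mouse, without predicted genes, plus up to 6 genes of each list by level. Col1a2, Ogn, Ccl17, Ccl24, Ctsd, Ly86, Tmem176a, Rgs10, Gm9733 and other genes outside that rule were chosen after their values were seen. Some results are not reported here. Doublets were kept; as an alternative, Scrublet scores marked the top 0.8% of cells per 1000 cells in libraries of 200 or more cells. In data simulated for the comparison of both classes over 2761 genes, 71% of 100 genes changed 4-fold and 78% of 100 changed 16-fold were recovered, and 7.45% of calls were false. Tumours were counted as separate mice by the numbers in their titles, and p-values measure the spread between these tumours. Coordinates are from GENCODE vM21.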

Additional observations from a re-analysis of the deposited data

Results flagged for a closer look

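For the Ly6c2/Ccr2/Lyz2 cells of the 4 MYC mice, 150 items were checked for 1 mouse apart from the other 3. They were gene levels, list sums, log2 differences of named genes from macrophages, and shares of cells. In 36 the gap to the nearest other mouse, as a share of the whole range, was above Dixon's 95% critical value for 4 samples. All 36 were gene levels or list sums. For normally distributed values chance gives this in about 1 in 20, but CPM need not be so distributed. Some of the genes checked were chosen after their values were seen. Meg3, Cryab, Sparc and Id3, for example, were picked because they stood high in MYC replicate 5. Flags of such genes were partly fixed by that choice, so the 36 cannot be set against 1 in 20. Genes of 1 list are not independent of each other. All values below are CPM summed over the cells of a mouse.

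MYC replicate 1 stood apart in inflammatory genes at 14421 CPM (others 1225 to 2408), dissociation stress genes at 10666 CPM (others 4542 to 5157), mitochondrial transcripts at 15969 CPM (others 30059.7 to 30457) and Cxcl10 at 4294 CPM (others 17.2 to 595). The same mouse held Ccl2 at 5098 CPM (others 71.5 to 282), Ccl4 at 3285 CPM (others 204 to 248), Cxcl2 at 984 CPM (others 135 to 164) and Il1rn at 709.9 CPM (others 2.86 to 103). Also apart there were Eno1 at 1582 CPM (others 196 to 395), Hilpda at 522 CPM (others 11.3 to 79.1), Ccr1 at 522 CPM (others 45.8 to 124) and Lgals3 at 4789.9 CPM (others 1513 to 1854).

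MYC replicates 2 and 3 stood apart in neutrophil genes at 8049.9 CPM (others 35.6 to 291), mast cell and basophil genes at 17.2 CPM (others 0), granulocyte-monocyte progenitor genes at 11856 CPM (others 0 to 22.6) and proliferation genes at 6565 CPM (others 274 to 797). The same mouse held S100a8 at 6078 CPM (others 1.98 to 77.0), S100a9 at 1508 CPM (others 0 to 68.4), Prtn3 at 3474 CPM (others 0 to 11.3) and Elane at 3345 CPM (others 0). Also apart there were Mpo at 2241 CPM (others 0 to 8.55), Ctsg at 2015 CPM (others 0 to 8.55), Ms4a3 at 767 CPM (others 0 to 11.3) and Hmgb2 at 3383 CPM (others 163 to 429). Further values were Stmn1 at 1325 CPM (others 0 to 198).

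MYC replicate 4 stood apart in Ccr2 at 1319.7 CPM (others 255 to 419), Tmem176b at 327 CPM (others 68.4 to 88.7) and Cst3 at 3181 CPM (others 1912 to 1993). The Ccr2 flag is a description only, since the rule asked for at least 1 Ccr2 UMI in each of the 49 cells. These cells held only 88657 UMIs in all, so the rule and their depth set a floor under this level.

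MYC replicate 5 stood apart in microglia genes at 1141 CPM (others 88.7 to 169), plasmacytoid dendritic cell genes at 51.4 CPM (others 0), Hpgds at 21.8 CPM (others 0 to 2.86) and Cd63 at 1121 CPM (others 31.5 to 77.0). Most of the microglia sum was Sparc, at 977 CPM, which is also among the genes picked in this library. Of the plasmacytoid list, Ccr9, Klk1 and Cox6a2 were at 0 CPM. The same mouse held Meg3 at 2175 CPM (others 0 to 8.55), Cryab at 3304 CPM (others 0 to 59.9), Sparc at 977 CPM (others 0 to 17.1) and Id3 at 1574 CPM (others 11.3 to 59.9).

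The mitochondrial sum of MYC replicate 1 is the only one of these that lay below the other mice. All Ly6c2/Ccr2/Lyz2 cells of the mouse of MYC replicates 2 and 3 came from MYC replicate 2.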

How the results depend on the processing

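The comparison of Ly6c2/Ccr2/Lyz2 cells with C1q macrophages called 23 genes. It called 73 with DESeq2 1.42.0, 196 with no filter on low counts (of 17321 tested), 2 without the replicate block, 57 with 5 or more cells per mouse and class, which added SHH replicate 1, and 46 with Ly6c2/Ccr2/Lyz2 cells free of other-lineage and tumour genes, where 2 mice (MYC replicates 4 and 5) and 72 such cells were left. In alternatives chosen after seeing the data it called 71 without cells holding progenitor genes. That setting also dropped the mouse of MYC replicates 2 and 3. Another such setting, without cells holding MYC tumour genes, dropped MYC replicate 1, called 19 and kept 11 of the 23 calls. The last, with cells below 1000 CPM of the 6 genes picked in MYC replicate 5, called 28. Leaving out 1 mouse gave 3 (MYC replicate 4) to 32 (MYC replicates 2 and 3) calls, with 5 without MYC replicate 5 and 18 without MYC replicate 1; the other settings gave 16 to 30. The cause was not tested. Of the 23 genes, 23 were also called by DESeq2, 3 without MYC replicate 4, 3 without MYC replicate 5 and 7 after thinning to 1500 UMIs, where 678 genes could be tested. Over 339 values of the 20 named genes under 18 settings, 251 kept direction and call, 88 lost the call and 0 changed direction; Pf4 kept its call in each setting that tested it. The higher MYC share kept its direction in each setting, at 1.48 to 3.32 percentage points of all cells and 25.8 to 33.1 of Ly6c2/Ccr2/Lyz2 cells plus macrophages, and leaving out 1 mouse gave 2.44 to 4.29 and 24.0 to 43.2 points, and the smallest p over these settings was 0.133 (exact permutation test). All alternatives for MYC against SHH within these cells and for the comparison with Cd209a dendritic cells were not run, since too few mice held such cells. The 7 cells of SHH replicate 1 hold 15861 UMIs, so that 0 UMIs of a gene allows 233 CPM by the exact Poisson bound.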
